A study of Mus musculus with 47 samples.

Results

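The chaperone and heat shock protein genes were taken by symbol. They are the genes whose names begin with Hsp followed by a digit or a letter from a to h, Dnaja, Dnajb or Dnajc followed by a digit, or Cct followed by a digit from 2 to 8, together with Bag1 to Bag6. This gave 90 of the 22800 genes in the read count table, and 74 of them had at least 1 read in the cells compared here. Single NPY-positive GABAergic neurons had been recorded in acute slices and their cytosol aspirated through the patch pipette, 1 cell per library, in the superficial layers of the auditory cortex (AC) and in stratum lacunosum-moleculare of hippocampal CA3. No treatment is named for them, and all cells came from mice of 3 to 8 weeks that carried a green fluorescent reporter for NPY. The strain is called NPY-EGFP in the deposited description and NPY-hrGFP in the study's methods, and 8 mice gave all the cells. Used here were 10 AC cells and 13 CA3 cells, with 3 CA1 cells (N1, N2X and N6) set beside them. The mouse behind each cell is not given, so each region counts as 1 sample. No test between regions could be made, and every difference below is a difference between these cells.

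Molecular chaperones bind unfolded proteins and help them reach or keep their folded state. The Hsp70 proteins hold short stretches of chain with the help of J-domain proteins (the Dnaj genes) and release factors (the Bag genes), Hsp90 finishes kinases and receptors, and the CCT ring folds actin and tubulin in the cytosol. Some of these genes serve every cell at all times, whereas others are switched on by heat shock factor 1 when proteins unfold, and neurons are known for a high threshold of that response. Fos and Egr1, immediate early genes that follow neuronal activity and handling, are widely used as markers of recent stimulation.

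The libraries held 1715012 to 6265431 reads in AC, 2229519 to 7949918 in CA3 and 601781 to 3202430 in CA1, and 29 to 50, 29 to 63 and 34 to 47 chaperone genes were detected per cell. All 5 GABAergic and NPY markers had reads in each region, with a summed level of 6988 to 31110 reads per 1000000 counted reads (CPM) in AC cells and 4928 to 23950 CPM in CA3 cells. Markers of other cells were also read. Of 9 astrocyte markers 8 had reads in AC (0.493 to 3361 CPM per cell) and 5 in CA3 (0 to 668 CPM), 7 of 8 microglia markers had reads in both (up to 5227 and 2244 CPM), and 3 and 6 of 7 oligodendrocyte markers (up to 367 and 1043 CPM). Of these 3 glial lists only Aqp4, Tmem119 and Mog were at 0 in all AC, CA3 and CA1 cells used, and the other genes had reads in some of them. The pyramidal markers reached 189.7 CPM in AC and 384 CPM in CA3 (5 and 3 of 6 with reads), and of 3 endothelial markers 1 had reads in each. In CA1 the astrocyte, oligodendrocyte, microglia and pyramidal markers were highest in N1, at 1703, 567, 452 and 648 CPM.

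Chaperone transcripts together took 7541 to 19210 CPM of an AC cell, with a median of 12050 CPM. In CA3 cells they took 11740 to 21050 CPM with a median of 16220 CPM, and the CA1 cells held 10640, 14070 and 11380 CPM. Pooled over cells this was 12920 CPM in AC, 16060 CPM in CA3 and 13000 CPM in CA1. The AC and CA3 ranges overlap, with 5 AC cells (N3X, N4, N44, N46 and N7) under the lowest CA3 cell. For single genes the level of a cell was log2(normalized count + 1), and a gene entered the comparison if it had a read in at least 10 of the 23 AC and CA3 cells, which 48 of the 90 did. A gene is spoken of as higher in a region where the means of the cells differ by at least 1 on this log2 scale. By this measure 8 of the 48 were higher in AC, or 16.7%, against 16.6% of the 5964 genes compared, and 21 were lower in AC, or 43.8%, against 46.9%. The remaining 19 lay within 1 of each other.

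Both shares were near those of all genes. The median difference of the chaperone genes was -0.53 and that of all genes -0.84, so that relative to all genes their median was 0.31. Counted from the median of all genes, the split turned to 18 chaperone genes above and 13 below, against 29.3% and 29.9% of all genes. For none of the 48 did the AC cells and the CA3 cells form ranges that do not overlap (0.0503% of all genes did). Only Cct2 differed by more than the larger SD over cells, which 5.42% of all genes did. The count of genes lower in AC moved with 3 AC cells. N4, N42 and N46 had summed astrocyte markers of 3361, 1062 and 1170 CPM, and without them 11 of 45 chaperone genes were lower in AC (24.4%, against 43.8% of all genes) and 8 were higher (17.8%, against 20.8%). N42 and N46 also had the most microglia markers of AC (5227 and 2746 CPM), N42 the fewest detected genes (3163), and N4 and N46 the highest mitochondrial shares (1.52 and 1.40% of reads). The part of these in the counts was not tested. Over all labelled cells (19 AC and 21 CA3), which adds 9 AC and 8 CA3 cells with as few as 738 and 633 detected genes, 3 of 61 chaperone genes were higher in AC (4.92%, against 7.89% of all genes) and 36 were lower (59.0%, against 53.2%). Of the 8 added CA3 cells 7 held 0 to 2488 CPM of GABAergic and NPY markers, and these 7 held up to 45950 CPM of astrocyte and up to 131400 CPM of oligodendrocyte markers. An added AC cell, N10, held 32550 CPM of astrocyte markers. The part of glial RNA in the values over all labelled cells was not tested.

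**Figure D1:**
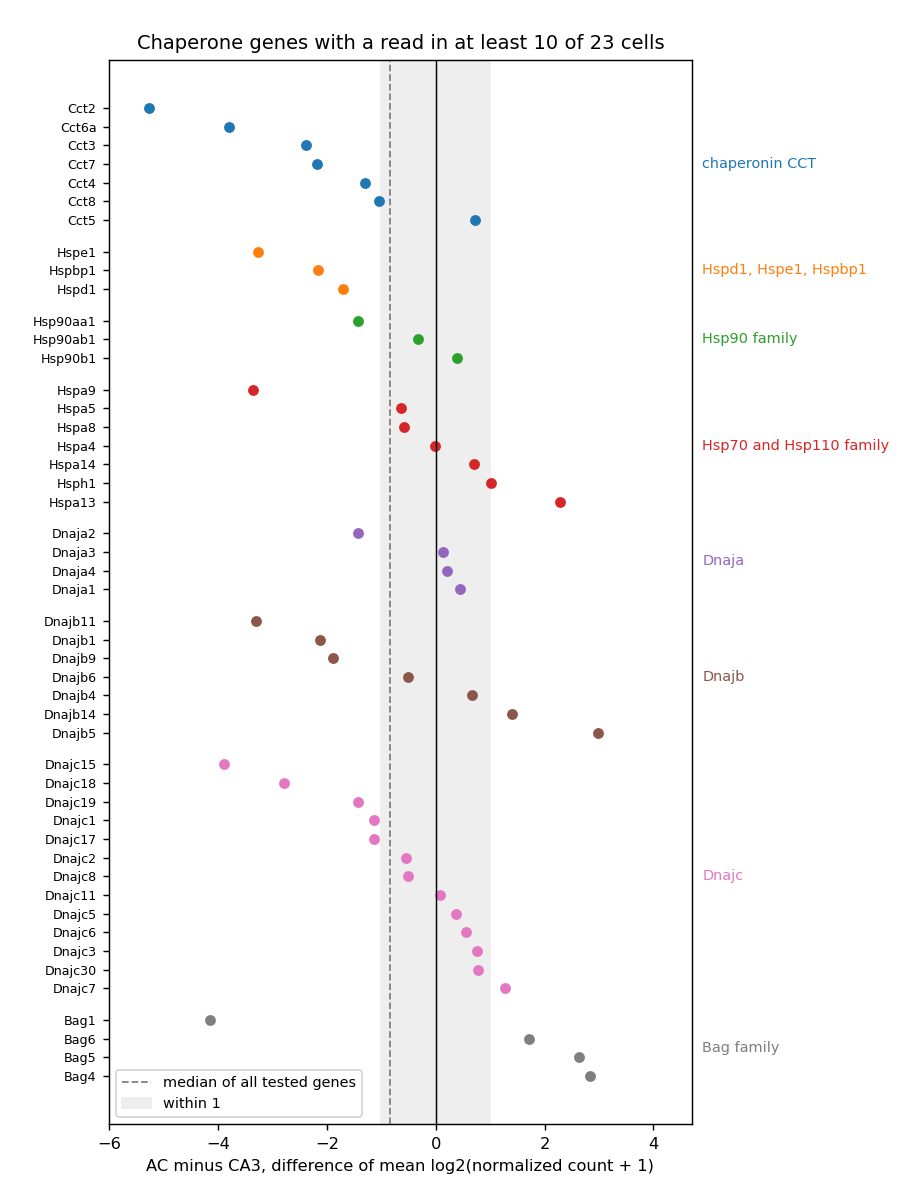
Difference between the mean levels of 10 AC cells and 13 CA3 cells for the 48 chaperone genes read in at least 10 of the 23 cells, on the log2(normalized count + 1) scale, with 1 point per gene and genes grouped by family. The dashed line is the median of all 5964 genes at -0.84 and the grey band marks differences within 1. Most chaperonin CCT points lie on the left, with Cct2 at -5.27, and Dnajb5 lies farthest right at 2.98.

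The most abundant transcripts were those of the cytosolic Hsp90 and Hsp70 proteins. Compared per length, as CPM per kilobase of exon over the 23 cells, Hsp90ab1 led with 700.4, followed by Hspa8 with 481, Hsp90aa1 with 266, the chaperonin subunit Cct8 with 149.6 and the endoplasmic Hsp90 gene Hsp90b1 with 149. The first 3 led in this order in AC and in CA3, but the next differed by region, with Cct8 (143), Cct5 (139.2) and Hsp90b1 (139.1) in AC and Hspa9 (168.5), Dnaja2 (168.4) and Hsp90b1 (156) in CA3. Hsp90ab1, the constitutive cytosolic Hsp90, was read in every cell, at 524 to 4504 CPM in AC (median 1623), 764 to 3411 CPM in CA3 (median 1967) and 2174, 1339 and 1686 CPM in the CA1 cells. Its level was 12.35 ± 1.35 in AC and 12.67 ± 0.70 in CA3 (SD over 10 and 13 cells), a difference of -0.32 (-2.69 over all labelled cells).

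Hspa8, the constitutive Hsp70 that also strips clathrin from vesicles, was likewise read in every cell. It lay at 419 to 3119 CPM in AC (median 1579), 1172 to 3471 CPM in CA3 (median 2145) and 693, 933 and 1354 CPM in CA1. The lowest AC cells were N4 and N3X and the difference in level was -0.59 (-3.89 over all labelled cells). Hsp90aa1, the stress-inducible cytosolic Hsp90, ranged from 3.34 to 1600 CPM in AC (median 749.9) and from 439 to 2845 CPM in CA3 (median 1179). The CA1 cells held 54.8, 567 and 828 CPM. Its level differed by -1.42, and AC cell N44 with 11 reads set the lower end. Without N44 the difference was -0.67, within 1. Hsp90ab1, Hspa8, Hsp90aa1 and Cct5 were the only 4 chaperone genes with a read in all 23 cells, and the other genes were at 0 in some of them.

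The heat-inducible genes were considered as a list of 13. These were the inducible Hsp70 pair Hspa1a and Hspa1b, Hspb1, Hsph1, Dnajb1, Dnaja1, Dnajb4, Hsp90aa1, Hspe1, Hspd1, Hspa8, Hspa4l and Bag3. Hspa1a and Hspa1b, the classical reporters of heat shock factor activity, lie next to each other on chromosome 17 (chr17:34969190-34972156 and chr17:34956436-34959238, minus strand, GRCm38). Heat shock factor 1 binds inverted repeats of the unit GAA, and their upstream windows are shown because each holds 1 pair of such units and no run of 3. These are the 250 bases before the RefSeq start of each gene (GRCm38.p6, chr17:34972157-34972406 and chr17:34959239-34959488, minus strand), with the pair in capitals.
Hspa1a: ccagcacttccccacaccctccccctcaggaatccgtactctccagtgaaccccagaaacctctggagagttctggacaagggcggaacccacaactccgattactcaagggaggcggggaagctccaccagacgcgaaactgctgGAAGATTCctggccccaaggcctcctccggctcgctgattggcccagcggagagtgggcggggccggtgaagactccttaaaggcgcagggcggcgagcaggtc
Hspa1b: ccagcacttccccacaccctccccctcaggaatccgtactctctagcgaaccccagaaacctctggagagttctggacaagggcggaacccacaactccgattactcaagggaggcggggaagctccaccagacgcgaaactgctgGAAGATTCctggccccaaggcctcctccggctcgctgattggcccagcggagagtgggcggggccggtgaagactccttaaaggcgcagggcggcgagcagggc
The windows share 247 of 250 bases.

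Pairs of units, GAANNTTC or TTCNNGAA on either strand, were found in the 250-base windows of 14.5% of 27025 genes, of 17 of the 74 chaperone genes with a RefSeq window and of 8 of the 11 heat-inducible genes with one. Runs of 3 units, GAANNTTCNNGAA or TTCNNGAANNTTC, which contain the pair, were in the windows of 0.514% of genes, of 3 chaperone genes and of 2 heat-inducible genes. A match is a run of letters and not a shown binding site.

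Little of the inducible Hsp70 pair was read. Hspa1a had reads in 2 of 10 AC cells (20.0%, exact Clopper-Pearson 95% interval 2.52 to 55.6%), 5 of 13 CA3 cells (38.5%, 13.9 to 68.4%) and none of the 3 CA1 cells. AC cell N3X alone held 348 CPM, or 99.9% of all Hspa1a reads of AC, and the other AC cell with reads, N41, held 0.229 CPM. The CA3 cells N32, N33, N34, N37 and N39 held 11.5, 24.0, 14.6, 59.5 and 8.30 CPM. The 2 scales therefore disagree. By mean level AC differed from CA3 by -1.12, and the log2 ratio of the summed CPM was 1.96, with nearly all AC reads in N3X. The difference in level was -2.13 without N3X and -0.65 without N37.

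Hspa1b had reads in 3 AC cells, N43 with 89.4 CPM, N5 with 46.0 CPM and N3X with 0.247 CPM, and in 2 CA3 cells, N33 with 4.64 CPM and N37 with 5.62 CPM. No CA1 read was found for either gene, which allows up to 0.596 CPM over the 5034558 CA1 reads (3 reads, counting error only). Reads of the pair are hard to place. Of the 50-base stretches of the Hspa1a transcript 58.8% occur in that of Hspa1b, and 62.3% the other way, so counts could pass from one gene to the other or be lost. The small heat shock gene Hspb1 had no read in any AC, CA3 or CA1 cell, and Bag3, a cochaperone induced by proteotoxic stress, had reads in 1 CA3 cell (N26, 145 CPM).

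Among the other heat-inducible genes 8 could be compared, of which 1 was higher in AC (12.5%, against 16.6% of all genes), 4 were lower (50%, against 46.9%) and 3 lay within 1, with a median of -1.0 against -0.84 for all genes. Without N4, N42 and N46, Hsp90aa1 and Hspe1 were still lower by at least 1, Hspd1 and Dnajb1 were not, and none was higher. Of all genes 43.8% were lower and 20.8% higher in that setting. Hsph1, the Hsp110 that recharges Hsp70, was the 1 higher in AC. It lay at 0 to 1224 CPM in AC (median 221), at 0 to 468 CPM in CA3 (median 118), and in CA1 only N6 had reads (118 CPM). The highest AC cell was N42 and the difference in level was 1.01, with SDs of 5.09 and 4.35. It was under 1 without any 1 of 12 cells and lowest without N42 (0.31). Dnaja1, an Hsp40 partner of Hspa8, ranged from 24.0 to 1745 CPM in AC (median 437), from 0 to 1005 CPM in CA3 (median 636), and was 414, 304 and 119 CPM in CA1. Its difference of 0.45 was small against SDs of 1.96 and 3.14. Dnajb1, the main heat-induced Hsp40, had reads in 5 AC cells, 11 CA3 cells and 2 CA1 cells. Its AC cells spanned 0 to 247 CPM (median 19), its CA3 cells 0 to 282 CPM (median 56.2), and its difference in level was -2.12. Without N4, N42 and N46, none of which had a Dnajb1 read, the difference was within 1. Dnajb4 was within 1 (difference 0.67), and Hspa4l, with reads in 2 AC and 6 CA3 cells, was below the detection limit for the comparison.

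**Figure D2:**
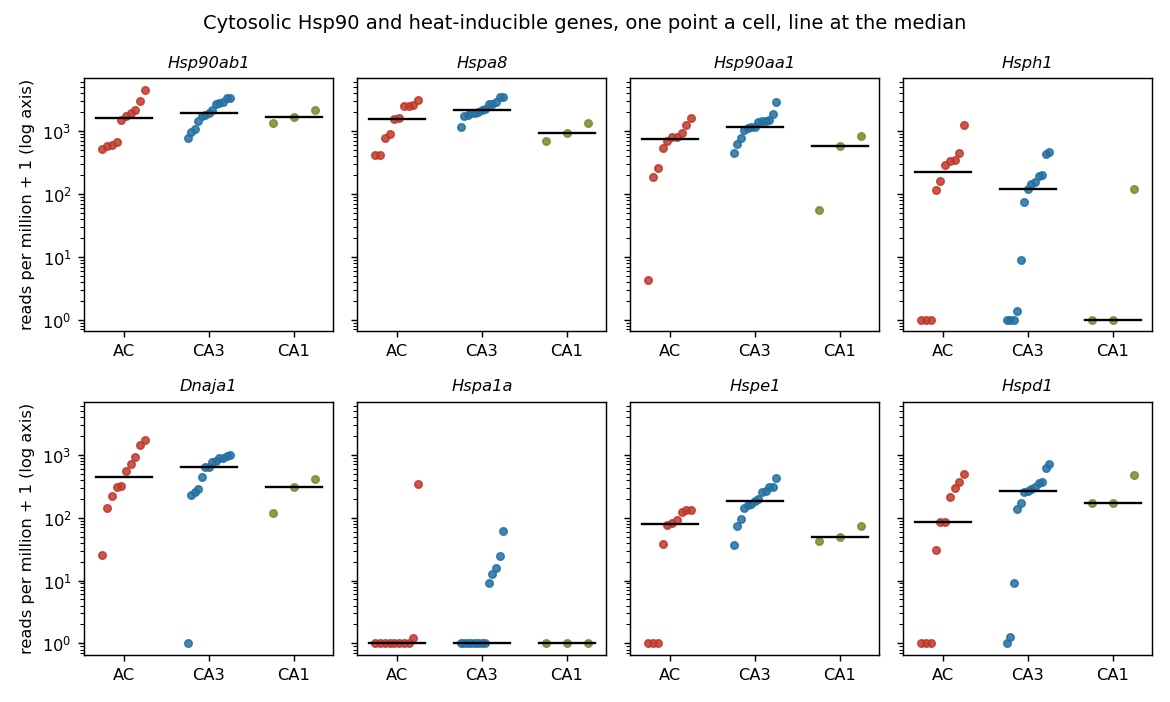
CPM plus 1 (log axis) of 8 cytosolic Hsp90 and heat-inducible genes in each of 10 AC, 13 CA3 and 3 CA1 cells, with a line at the median of the region. Hsp90ab1 and Hspa8 are at 419 CPM or more in every cell, whereas Hspa1a is at 0 in most cells and reaches 348 CPM in 1 AC cell.

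Whether the stress-induced members follow Fos and Egr1 was asked cell by cell. Fos lay at 823 to 4299 CPM in AC (median 1280), 10.7 to 2077 CPM in CA3 (median 528) and 495, 851 and 519 CPM in CA1, in the order N1, N2X and N6. Egr1 lay at 568 to 4851 CPM in AC (median 1563), 0 to 920 CPM in CA3 (median 359) and 236, 3894 and 0.813 CPM in CA1. The 13 heat-inducible genes summed to 1719 to 6155 CPM in AC (median 3919), 3734 to 8469 CPM in CA3 (median 4591) and 1545, 2956 and 2685 CPM in CA1. Fos and Egr1 were thus higher in AC and the median of the heat-inducible sum was lower there. Much of this sum is the constitutive Hspa8 (1705 of 3972 CPM pooled over AC and 2325 of 5301 CPM over CA3), with Hsp90aa1 at 725 and 1271 CPM. Pooled Hspa1a and Hspa1b stood in the other order, at 41.4 and 10.8 CPM in AC and 10.7 and 0.86 CPM in CA3, with the AC reads in few cells.

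Single cells showed no order that held for all of them. N3X had the most Fos and the most Egr1 of all cells used, the most Hspa1a, and the lowest heat-inducible sum of AC (1719 CPM). N43 and N42 had the highest sums of AC (6155 and 5392 CPM) and, after N3X, the most Fos of AC (2383 and 3925 CPM). In CA3, N40 had 10.7 CPM of Fos and no Egr1 read with a sum of 4352 CPM, and N37 had 2077 CPM of Fos and 920 CPM of Egr1 with a sum of 4944 CPM. The highest sum, 8469 CPM in N31, stood beside 369 CPM of Fos and 653 CPM of Egr1, the most Egr1 of CA3 after N37.

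Within a region, Spearman's rho with Fos was taken for the 8 heat-inducible genes read in at least 50% of its cells. Its median over these genes was 0.11 across 10 AC cells and 0.00 across 13 CA3 cells. Hspa1a, Hspa1b, Hspb1, Hspa4l and Bag3 were read in too few cells, so the values below do not cover the inducible Hsp70 pair. For all genes read in at least 50% of the cells of a region the medians were -0.03 and -0.01. With Egr1 the medians were 0.12 in AC and 0.04 in CA3, against -0.01 and 0.00 for all genes. Leaving out 1 cell moved the medians with Fos to 0.09 to 0.32 in AC and -0.13 to 0.11 in CA3 (-0.21 without N40 and N28), and those with Egr1 to -0.06 to 0.36 and -0.08 to 0.21, so that the sign was not stable except with Fos in AC. Positive values were found for 5 of the 8 genes with either target in AC and for 4 of the 8 in CA3. These are descriptions over few cells, in which both genes of a pair share a library and its size factor. Over the 19 labelled AC cells the median with Fos was 0.52 for the 4 heat-inducible genes that could be used and 0.43 for all genes.

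As a scale for these values, Fos and Egr1 correlated with each other at 0.67 in AC and 0.69 in CA3, and the middle 90% of all genes spanned -0.58 to 0.55 for Fos in AC and -0.50 to 0.51 in CA3. Past 0.5 with Fos lay 1 of the 8 heat-inducible genes in each region (12.5%, against 6.95% of all genes in AC and 5.2% in CA3), and it was not the same gene. With Egr1 none of the 8 lay past 0.5 in either region, against 5.86% of all genes in AC and 5.55% in CA3. Dnaja1 had a rho of 0.70 with Fos in AC and -0.24 in CA3, and without the 2 cells farthest from the median of Fos (N42 and N3X in AC, N40 and N28 in CA3) these were 0.90 and 0.26. Hsph1 had 0.51 with Fos in CA3 and -0.08 in AC, or 0.52 and -0.32 without these cells. With Egr1, Dnaja1 had 0.39 in AC and 0.09 in CA3 (0.12 and 0.28 without N4 and N7 in AC and N27 and N40 in CA3), and Hsph1 had -0.40 and 0.47 (-0.56 and 0.15). In AC and CA3, Hspa8 stood at -0.09 and -0.40 with Fos (0.36 and -0.38 without the cells left out for Fos), Hsp90aa1 at -0.22 and 0.12 (-0.50 and -0.30), and Dnajb1 at 0.06 and 0.16 (0.15 and 0.43). Egr1 itself had a rho of 0.83 with the read total of the AC cells and Dnaja1 one of 0.73 with that of the CA3 cells. The part of depth in these values was not tested.

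**Figure D3:**
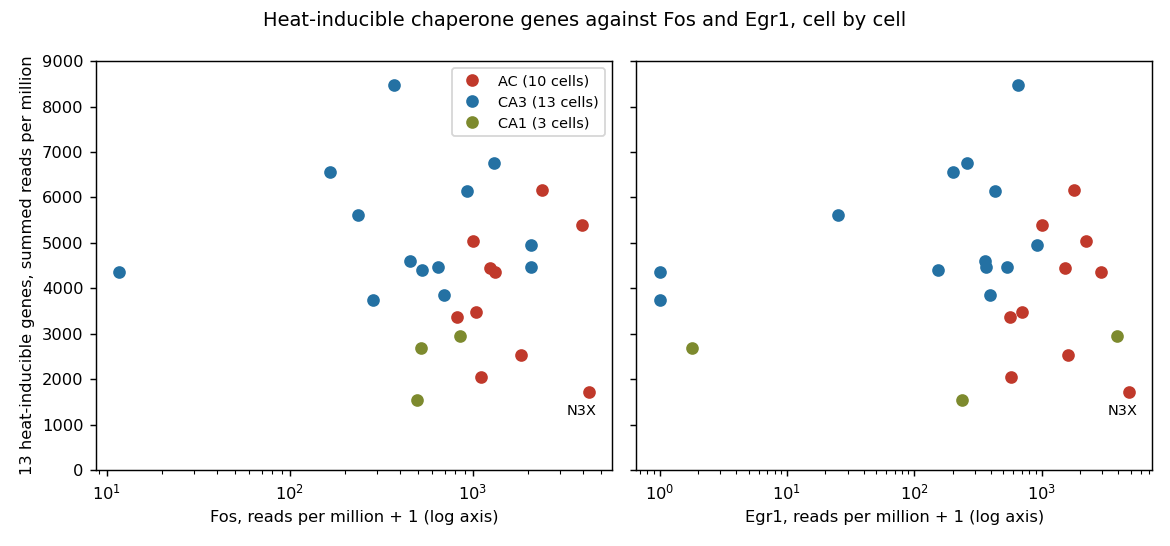
Summed CPM of the 13 heat-inducible genes (linear axis from 0) against CPM plus 1 of Fos on the left and Egr1 on the right (log axes), with 1 point per cell for 10 AC, 13 CA3 and 3 CA1 cells. N3X has the highest Fos (4299 CPM) and Egr1 (4851 CPM) and a heat-inducible sum of 1719 CPM.

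Over all chaperone genes, 5 of 43 were at 0.5 or more with Fos in AC (11.6%, against 6.95% of all genes) and 2 of 41 in CA3 (4.88%, against 5.2%), and with Egr1 2 of 43 (4.65%, against 5.86%) and 2 of 41 (4.88%, against 5.55%). The values farthest from 0 lay outside the heat-inducible list. Cct2 had a rho of -0.81 with both Fos and Egr1 across the AC cells, 5 of which had no Cct2 read. Dnajc18, a J-domain protein of the endoplasmic reticulum membrane, had -0.87 with Egr1 and -0.56 with Fos across the CA3 cells, all of which had reads, or -0.79 and -0.31 without 2 cells. Its highest cell was N27 (624 CPM), where Egr1 was at 0. Cct8 stood at 0.75 with Egr1 and 0.54 with Fos in CA3.

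The chaperonin CCT was the family with the most members on one side. Of its 9 matched genes Cct6b and Cct8l1 had no read, and 6 of the 7 compared were lower in AC, or 85.7% against 46.9% of all genes, with a median difference of -2.19 against -0.84 for all genes. The family summed to 421 to 3285 CPM in AC (median 1757), 990 to 4915 CPM in CA3 (median 3221), and 2330, 3332 and 2170 CPM in the CA1 cells. The CA1 cells N1 and N6 thus lay between the medians of AC and CA3, and N44 was the lowest AC cell. Without N4, N42 and N46, 4 of the subunits remained lower in AC by at least 1, namely Cct2, Cct3, Cct6a and Cct7 (43.8% of all genes were), and counted from the median of all genes the number was also 4 (29.9% of all genes).

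Cct2 (chromosome 10, GRCm38 117051001 to 117063814) had the largest difference of all chaperone genes. It was at 0 in 5 AC cells and at 2.92, 37, 119, 126 and 366 CPM in N4, N44, N5, N46 and N7. In CA3 it was at 0 in N27 and at 91.6 to 996 CPM in the other 12 cells, with a median over all 13 of 224 CPM. The CA1 cells held 214, 0 and 114 CPM. Reads were found in 50% of the AC cells (18.7 to 81.3%, 95% interval) and in 92.3% of the CA3 cells (64.0 to 99.8%), and the levels were 3.84 ± 4.41 and 9.11 ± 2.91, a difference of -5.27. The pooled values were 46.5 CPM in AC (Poisson 95% interval 44.3 to 48.9, counting error only) and 303 CPM in CA3 (298 to 308).

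Cct6a, whose exons share 15.3% of their bases with other annotated genes, was at 0 in N4, N44 and N7 and reached 1258 CPM in N41, against 91.1 to 1112 CPM in CA3, where every cell had reads. Its difference in level was -3.80, whereas the pooled values were close (397 CPM in AC and 455 CPM in CA3). Cct7 lay at 0 to 798 CPM in AC (median 380) and 267 to 1205 CPM in CA3 (median 760), with 784, 905 and 207 CPM in CA1 and a difference of -2.19. Cct3 had a difference of -2.38 and Cct8 of -1.04. Without N44 the differences of Cct7, Cct3 and Cct8 were -1.19, -1.56 and -0.04, and Cct8 was also within 1 without N28, N31, N34 or N46 (-0.99 to -0.61), while Cct3 was at -1.53 without N8. Cct4 and Cct5, named after their values were seen to complete the family, had -1.30 and 0.72. Cct4 was within 1 without N34, N40, N42, N44 or N5 (-0.98 to -0.59), and Cct5 was read in every cell. The eighth subunit, Tcp1, carries no Cct name and so was not matched. It differed in the other direction (2.76), at 0 to 708 CPM in AC (median 341) and 0 to 661 CPM in CA3 (median 135), and 16.9% of its exon bases are shared with genes of either strand.

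**Figure D4:**
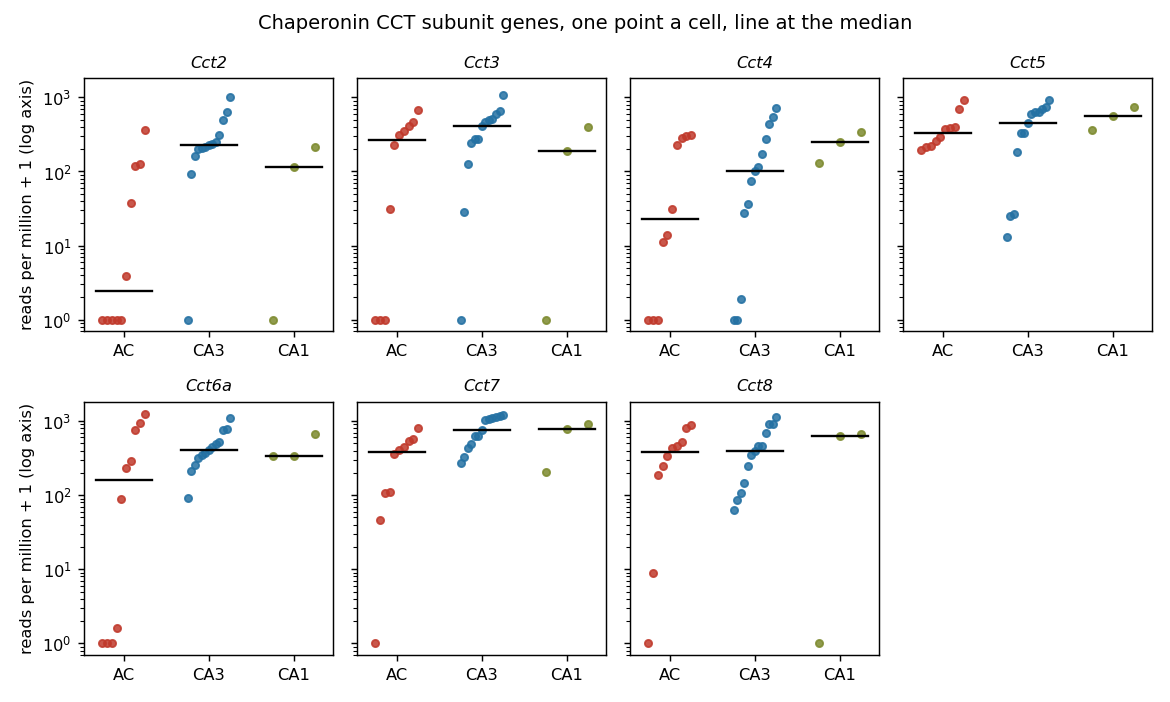
CPM plus 1 (log axis) of the 7 compared chaperonin CCT genes in each of 10 AC, 13 CA3 and 3 CA1 cells, with a line at the median of the region. Cct2 is at 0 in 5 AC cells and 1 CA3 cell, and Cct5 is above 0 in all cells.

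Of 10 genes matched by name whose proteins work in the mitochondrion 8 could be compared. None of these was higher in AC and 5 were lower (62.5%, against 46.9% of all genes), with a median of -1.57 against -0.84. Without N4, N42 and N46, Hspa9, Dnajc15 and Hspe1 were still lower by at least 1, Hspd1 and Dnajc19 were not, and Dnaja3 was higher. Of all genes 43.8% were lower and 20.8% higher in that setting. They summed to 480.5 to 2318 CPM in AC (median 834), 534 to 3427 CPM in CA3 (median 1545) and 1009, 1152 and 722 CPM in CA1. Mitochondrially encoded transcripts took 0.252 to 1.52% of reads in AC and 0.371 to 2.23% in CA3. Hspa9, the Hsp70 of the matrix, was at 0 in 3 AC cells and reached 1527 CPM in N42, and lay at 12.8 to 2029 CPM in CA3 (medians 211 and 666). It was 337 to 457 CPM in the CA1 cells and its difference in level was -3.35. Dnajc15, a J-domain protein of the inner membrane, had reads in 2 AC cells, 9 CA3 cells and no CA1 cell, at up to 140 and 353 CPM, with a difference of -3.89.

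Hspd1 (Hsp60) and Hspe1 (Hsp10) form the chaperonin of the matrix and are transcribed head to head from one promoter region on chromosome 1. The RefSeq window of Hspe1 overlaps 1 of the 2 windows of Hspd1 by 215 bases, and the stretch below, 30 bases at chr1:55088053-55088082 of GRCm38.p6 on the plus strand, lies in this overlap. It is shown because it holds the 3-unit elements, in capitals, which end 72 bases before the start of Hspe1.
Hspe1 and Hspd1: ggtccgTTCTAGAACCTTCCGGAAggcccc
Hspe1 was at 0 in AC cells N3X, N41 and N7 and at 36.7 to 133 CPM in the others, and at 35.3 to 430 CPM in CA3, with medians of 78.2 and 183 CPM. The CA1 cells held 48.2, 41.8 and 71.5 CPM and the difference in level was -3.26. Hspd1 was at 0 in N4, N43 and N46 and reached 491 CPM in AC, and lay at 0 to 710 CPM in CA3, with medians of 84.7 and 261 CPM and a difference of -1.71 (-0.97 to -0.92 without N4, N43 or N46). Different AC cells thus lacked the 2 partners.

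Across the 13 CA3 cells Hspd1 and Hspe1 varied together, with a Spearman's rho of 0.88, against -0.52 to 0.51 for the middle 90% of all genes with Hspe1. Across the 10 AC cells rho was 0.02. Without the 2 cells farthest from the median of Hspe1 the values were 0.86 and 0.17. The pair was chosen after the promoter and the values were seen. Exons of the genes overlap by 4.24% of Hspd1 and 7.60% of Hspe1, and 5 and 6 pseudogenes carry their names, so part of the reads cannot be assigned with certainty.

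**Figure D5:**
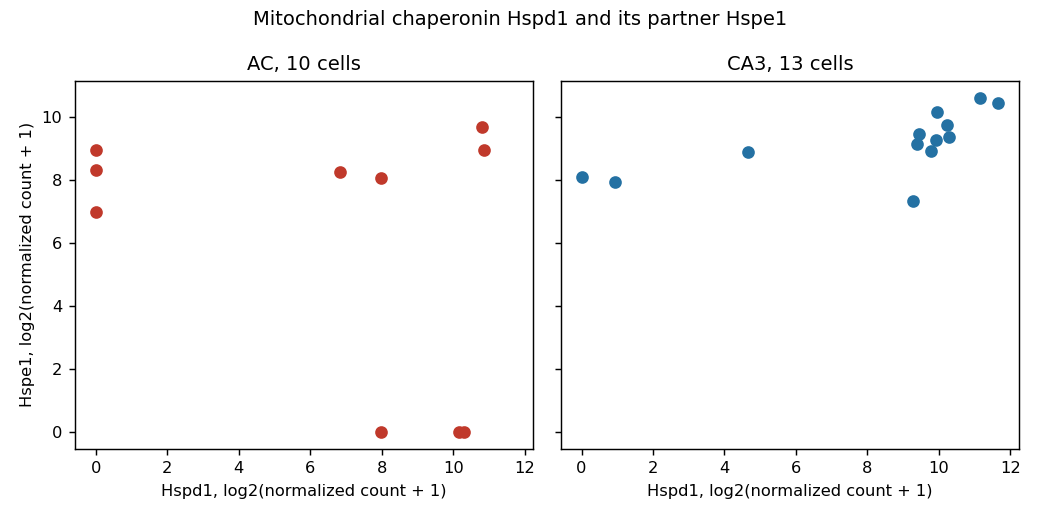
Level of Hspe1 against that of Hspd1, both as log2(normalized count + 1), with 1 point per cell for 10 AC cells on the left and 13 CA3 cells on the right. The CA3 points rise together (rho 0.88), and the AC points, with cells at 0 on either axis, do not (rho 0.02).

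Of a list of 8 chaperones of the endoplasmic reticulum, on which Dnajc18 does not stand, 7 could be compared, with 1 higher (14.3%, against 16.6% of all genes) and 3 lower in AC (42.9%, against 46.9%) and a median of -0.63 against -0.84. Their sums were 711 to 2536 CPM in AC, 462 to 2463 CPM in CA3 and 1491, 2721 and 1262 CPM in CA1. Hspa5 (BiP), the main Hsp70 of this compartment and a target of the unfolded protein response, lay at 0 to 1651 CPM in AC (median 342), 0 to 898 CPM in CA3 (median 291) and 399.9 to 638 CPM in CA1, with a difference of -0.63. Hsp90b1 (Grp94) differed by 0.39. Hspa13, an Hsp70 of microsomes, was higher in AC by 2.29, with reads in 7 of 10 AC cells and 6 of 13 CA3 cells and medians of 227 and 0 CPM. The BiP cofactors Dnajb11, Dnajb9 and Dnajc1 had differences of -3.30, -1.89 and -1.13, and Dnajc1 was within 1 without any 1 of 13 cells (-0.66 without N26). Without N4, N42 and N46, Dnajb11 was still lower (43.8% of all genes were), Dnajb9 and Dnajc1 were within 1, and Hspa13 and Dnajc3 were higher (20.8% of all genes were). Dnajb11 had reads in 3 AC cells, of which N7 at 323 CPM held 87.8% of the AC reads, and in 8 CA3 cells at up to 272 CPM. Dnajc3, an inhibitor of the kinase PERK that is also a BiP cofactor, differed by 0.75, and Dnajc10 had reads in 2 AC and 5 CA3 cells.

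Of 17 genes of the unfolded protein response 10 could be compared, none of them higher and 5 lower in AC (50%, against 46.9% of all genes), with a median of -1.25 against -0.84. The protein disulfide isomerase gene Pdia3 had the largest difference (-3.47, with no read in 4 AC cells and reads in all CA3 cells), and Ddit3, the transcription factor CHOP, the next (-2.82, medians of 88.4 and 248 CPM). At the other end Calr and Atf4 stood at 0.33 and -0.19. Of the 10 immediate early genes 8 could be compared, and 7 of them were higher (87.5%, against 16.6% of all genes) and none was lower in AC, with a median of 3.17 against -0.84, from Dusp1 at 0.17 to Egr1 at 4.02 and Jun at 4.10.

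J-domain proteins bring clients to Hsp70 and choose where it works. Of 13 Dnajb genes 7 were compared (2 higher and 3 lower in AC, 28.6% and 42.9%), of 28 Dnajc genes 13 (1 higher and 5 lower, 7.69% and 38.5%) and of the Dnaja genes all 4 (none higher and 1 lower), against 16.6% higher and 46.9% lower of all genes. Dnajb5 had the largest difference in favour of AC among all chaperone genes, at 2.98. Its AC cells N44, N46, N7 and N8 held 125, 105, 71.5 and 53.3 CPM, 3 others held 0.529 to 3.20 CPM and 3 had none. In CA3 it had reads in 4 cells, at 20.2 CPM in N26 and 0.377 to 5.43 CPM in the rest, and in CA1 in N2X only (140 CPM). Pooled over cells this was 37.1 CPM in AC and 1.52 CPM in CA3 (95% Poisson intervals 35.0 to 39.2 and 1.19 to 1.90). Dnajb14 and Dnajc7 were higher in AC by 1.40 and 1.27 (-0.93 and -1.97 over all labelled cells). Dnajb14 was under 1 without N7, N41 or N46 (0.80 to 0.93) and Dnajc7 without N28, N31, N37, N40, N41 or N44 (0.72 to 0.97). Dnajc7 was also within 1 without N4, N42 and N46 together. It lay at 0 to 477 CPM in AC and at 0 to 660 CPM in CA3. Of its exon bases 9.07% are shared with Nkiras2 and with Cnp, which is on the list of oligodendrocyte markers. Dnajc18 was lower in AC (a difference of -2.78), with reads in all 13 CA3 cells and 6 of 10 AC cells. Without N4, N42 and N46, none of which had a Dnajc18 read, its difference was within 1.

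At the synapse, Dnajc5 (cysteine string protein of synaptic vesicles) and Dnajc6 (auxilin, which brings Hspa8 to clathrin coats) work with Hspa8, and all 3 lay within 1 between the regions, as 36.5% of all genes did. Without N4 or N8 Dnajc5 was at 1.29 or 1.35 and without N27, N28 or N42 at -0.02, -0.28 or -0.05, and without N44 Dnajc6 was at 1.47. Dnajc5 ranged from 0 to 972 CPM in AC (median 309), from 0 to 714 CPM in CA3 (median 121) and was 347 to 879 CPM in CA1, with a difference of 0.38. Dnajc6 ranged from 0 to 495 CPM in AC (median 171) and from 2.78 to 409 CPM in CA3 (median 73.0), with a difference of 0.55. The closely related Dnajc5b and Dnajc5g had no read.

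The Bag proteins release clients from Hsp70. Of the 6 genes 4 could be compared and 3 were higher in AC (against 16.6% of all genes), namely Bag4 (2.83), Bag5 (2.63) and Bag6 (1.72), while Bag1 was lower (-4.14, against 46.9% of all genes lower). Bag1 had reads in 4 of 10 AC cells (40%, 12.2 to 73.8%), N43, N46, N7 and N8 with 98.0, 162, 80.8 and 102 CPM, and in 12 of 13 CA3 cells (92.3%, 64.0 to 99.8%) at up to 569 CPM (N27). All 3 CA1 cells held it, at 291, 121 and 177 CPM. Bag4 had medians of 132 CPM in AC and 0 in CA3, with 7 and 6 cells with reads, and 14.8% of its exon bases are shared with another gene. Bag5 had reads in 6 AC and 4 CA3 cells. Bag6, whose difference was -0.51 over all labelled cells, was read in all 10 AC cells at 3.39 to 154 CPM and in 10 of 13 CA3 cells at up to 126 CPM. The family as a whole pooled to 295 CPM in AC, 310.5 CPM in CA3 and 474 CPM in CA1.

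Small heat shock proteins, which hold unfolding proteins in solution and are known from glia and muscle, were little read. Of 8 genes Hspb1, Hspb3, Hspb7, Hspb8 and Hspb9 had no read, which allows up to 0.0881 CPM over the 34053508 AC reads and 0.0614 CPM over the 48858038 CA3 reads (3 reads). Hspb2, Hspb6 and Hspb11 had reads in 3, 1 and 5 CA3 cells, and of these only Hspb11 in AC (3 cells). All 8 stand here by the name Hspb and a number alone, which does not show that each encodes a small heat shock protein. Of the exon bases of Hspb2 30.2% are shared with Cryab on the other strand, so its reads cannot be assigned with certainty. The other chaperone genes with no read in AC or CA3 were Cct6b, Cct8l1, Dnajb13, Dnajb3, Dnajb7, Dnajb8, Dnajc22, Dnajc28, Dnajc5b, Dnajc5g and Hspg2. Dnajc28 had reads in CA1 cell N2X (95.2 CPM). Hspg2 matched by name only, since it encodes the matrix proteoglycan perlecan and is no chaperone.

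Cofactors and heat shock factors that the naming rule leaves out were given by a list of 35 genes. Of these 27 could be compared, with 3 higher (11.1%, against 16.6% of all genes) and 14 lower in AC (51.9%, against 46.9%) and a median of -1.07 against -0.84. Fkbp4, an Hsp90 immunophilin, had the largest difference (-5.07, reads in 5 AC and 12 CA3 cells), followed by Grpel1, the nucleotide exchange factor of Hspa9 (-3.64, reads in 5 and 11 cells). Higher in AC were Tcp1, the mitochondrial Hsp90 gene Trap1 (1.88) and Hsf1, the heat shock factor itself (1.84). Hsf1 was read in 6 AC cells at up to 272 CPM, in 5 CA3 cells at up to 131 CPM and in 2 CA1 cells at up to 99.97 CPM.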

How the data were processed

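The authors deposited their read counts without normalization, as a single table of 22800 symbols in 47 single cells. Per the study's methods, trimming used Trimmomatic and Flexbar, STAR placed the reads on Ensembl GRCm38 and HTSeq counted them (the submitters' notes name featureCounts), and identifiers of 1 symbol were averaged. The kit does not mark strand, so reads of overlapping genes cannot be told apart. Of the 90 genes 12 share over 10% of their exon bases with others and 6 have named pseudogenes.

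All members and gene lists were chosen with earlier results of these data known. The 10 AC and 13 CA3 cells were given by name, from earlier work that matched them to cells shown by the study. Neither labels nor methods tie cells to mice, so no p-value was computed, and cells are not replicates of a region. Size factors came from scran 1.30.0 (pools of 10 and 20 cells, 23 cells) in R 4.3.3, and levels are log2(normalized count + 1). A gene was compared where 10 or more of the 23 cells held a read of it. CPM used the total counted reads of a cell, intervals are exact (Poisson for summed reads, Clopper-Pearson for shares, 95%) and cover counting error only, and a count of 0 allows 3 reads. CA1 is given in CPM. Gene positions and exon lengths are from GENCODE vM21 (90 of 90 symbols matched), upstream sequences from RefSeq on GRCm38.p6 (74 of 90). Named were the heat-inducible, endoplasmic reticulum, mitochondrial and synaptic lists, the 10 largest differences each way, the 5 highest CPM per kilobase, and for other lists the 2 largest each way. Alternatives were library size, TMM (edgeR 4.0.16) and poscounts (DESeq2 1.42.0) factors, pseudocounts of 10 and 0.1, other detection limits, all labelled cells (20 AC and 21 CA3 columns, with N4 and N4X, which differed by little more than sampling noise, averaged as 1 cell), each cell left out, and cells thinned to 1715012 reads. The scripts were tested on simulated data.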

Additional observations from a re-analysis of the deposited data

Results flagged for a closer look

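A total of 4 single-cell values stood apart among the 10 AC cells, in that their gap to the next cell was a large part of the whole range (over Dixon's 95% limit for 10 values). For normally distributed values chance flags about 1 in 20 such groups. Many of these levels were at 0, so that rate does not hold here. A total of 45 genes were looked at. AC cell N3X held Hspa1a at a level of 10.01 (1410 reads), the next AC cell being at 1.17. N41 had no Dnajb4 read (level 0, next 5.61). N44 had Hsp90aa1 at a level of 3.79 (11 reads, next 9.10) and no Cct7 read (level 0, next 7.07).

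Chaperone reads were also present in cells that enter no comparison. They summed to 7559 and 8349 CPM in the 2 dentate gyrus cells N11 and N12 (675 and 1591 reads) and to 10240 CPM in the NPY-negative CA3 cell N16 (2988 reads). Glial markers were high in all 3, with 38160 and 38720 CPM of astrocyte markers in N11 and N12, 39070 CPM of oligodendrocyte markers in N11 and 180100 CPM in N16, and their part in the sums was not tested.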

How the results depend on the processing

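No paired analysis was possible because no label ties cells of different regions to a mouse. The cells of the regions overlapped for all 48 chaperone genes compared and most genes were at 0 in some cells, so a cell without reads weighs heavily on the log2 scale, and depth limits what a 0 can show.

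With library size, TMM or poscounts factors 7, 6 and 7 genes were higher in AC, 21 were lower each time, and the medians were -0.64, -0.64 and -0.65. With these factors, both pseudocounts, a minimum of 10 reads, thinning and without Hspg2, the counts of 8 higher and 21 lower stayed within 1.5 times. The median of -0.53 stayed within the median of the SDs of single genes over cells, a limit too wide to show that it is stable. The counts and the median moved as follows. Relative to the median of all genes, 18 were higher and 13 lower. Without a detection limit 11 of 90 were higher and 36 lower (12.2% and 40%, against 8.67% and 19.3% of all 22800 symbols; 14.9% and 48.6% of the 74 with a read, against 14.5% and 32.2% of 13624). Over all labelled cells (19 AC and 21 CA3, scran factors of their own) 3 were higher and 36 lower of 61 compared, and the median correlation of heat-inducible genes with Fos in AC was 0.52 in place of 0.11 (all genes 0.43 in place of -0.03). Without N4, N42 and N46, an alternative chosen after seeing the data, 11 were lower. The added cells held up to 131400 CPM of oligodendrocyte and 45950 CPM of astrocyte markers, and the cause of these shifts was not tested. Leaving out 1 cell at a time gave 6 to 10 genes higher in AC, 16 to 21 lower, 4 to 6 lower CCT genes (a count added after seeing the data), medians of -0.74 to -0.30, and median correlations of 0.09 to 0.32 (Fos, AC), -0.13 to 0.11 (Fos, CA3), -0.06 to 0.36 (Egr1, AC) and -0.08 to 0.21 (Egr1, CA3).

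Among named genes, Bag6, Dnajb14 and Dnajc7 turned to -0.51, -0.93 and -1.97 over all labelled cells, and Hspa1a to 1.96 by the log2 ratio of summed CPM. Of the other values of single genes under settings that keep all cells or use all labelled cells, 337 moved by less than the SD over cells, and Hspa8 and Hsp90ab1 went to -3.89 and -2.69 over all labelled cells. That SD is a wide limit, since all 989 values with 1 cell left out stayed within it too, although calls ended and signs turned. With 1 cell left out, 9 of the 26 named genes compared that differed by at least 1 came within 1 in some setting (Cct4, Cct8, Dnajb14, Dnajc1, Dnajc19, Dnajc7, Hsp90aa1, Hspd1 and Hsph1; Dnajc19 was at -0.92 without N3X or N42), and these with Cct3 and Cct7 moved by over 1.5 times. Of the other 13, 6 turned sign and 6 reached 1 without some cell (Dnajb4, Dnajc3, Dnajc30, Dnajc5, Dnajc6 and Hspa5). Those that turned were Dnaja1, Dnaja3, Dnajc11, Dnajc5, Hsp90b1 and Hspa5, from -0.57 (Dnajc11) to 0.34 (Hspa5).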
